A study of Homo sapiens with 12 samples.

Results

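The 45 genes described here encode the factors that start and extend protein synthesis on cytoplasmic ribosomes, together with the proteins that hold them in check. They were taken by exact gene symbol from the deposited table of 58884 genes, each symbol matched 1 row, and all 45 were among the 16537 genes with enough counts to be tested. RNA sequencing was done on human liver cancer cells of the HCC-LM3 and Huh-7 lines. In each line, 3 wild-type (WT) libraries from untreated cells were set against 3 METTL5-KO libraries from cells infected with a METTL5 guide RNA, which gave 12 libraries in 4 groups. METTL5 methylates a single adenosine of 18S ribosomal RNA, to give m6A. No control guide is named, so infection and loss of METTL5 cannot be told apart. Nor do the labels say whether replicates were separate cultures or the knockouts clones, so the p-values concern the spread among libraries of a group, which may be technical.

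An mRNA is translated once eIF4E has bound its cap. The scaffold eIF4G then brings the helicase eIF4A and the large eIF3 complex, which holds the small ribosomal subunit. eIF2 carries the initiator tRNA and is recharged with GTP by eIF2B, while eIF1, eIF5 and eIF5B select the start codon and join the subunits. In elongation, eEF1A delivers aminoacyl-tRNA, the eEF1B complex recharges eEF1A, and eEF2 moves the ribosome. The 4E-binding proteins block eIF4E, and eEF2 kinase blocks eEF2. Many of these mRNAs begin with a stretch of pyrimidines, the terminal oligopyrimidine (TOP) tract, through which mTORC1 signalling controls their translation.

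METTL5 mRNA was at 8.49, 8.54 and 9.93 CPM in wild-type HCC-LM3 and at 8.67, 11.3 and 8.56 CPM in wild-type Huh-7, and it had 0 counts in each of the 6 knockout libraries, where a count of 0 allows up to 3. CPM is a gene's count relative to its library size, here scaled by TMM, which sets libraries level on the bulk of genes. Libraries held 17495280 to 26415554 expected counts. Huh-7 knockout libraries differed in make-up from Huh-7 wild type: the 100 most abundant genes took 48.2% to 48.7% of counts against 35.0% to 35.8%, and the mean gene length over counts was 1624 to 1649 bases against 2561 to 2677. TMM factors were 0.491 to 0.510 against at least 1.06, and the median log2 fold change of all genes in Huh-7 moved from −0.30 with TMM to 0.00 with DESeq2 size factors and −1.40 with library totals alone, so Huh-7 changes have to be read relative to those medians. In HCC-LM3, wild-type replicate 1 stood apart from replicates 2 and 3 (chi-square per degree of freedom 32.1 and 26.6, against 3.81 between replicates 2 and 3). Huh-7 libraries had all 10 hepatocyte markers at a mean of at least 1 TPM (the deposited level per transcript length), with sums of 12200 to 17300 TPM. HCC-LM3 libraries had 1 of the 10, with sums of 12.3 to 16.6 TPM, and APOB and TTR were at 0 in all 6. Immune, endothelial and fibroblast markers summed to at most 57.5, 2.64 and 20 TPM in any library. Of the immune genes, CD68 had means of 44.6 and 52.6 TPM in HCC-LM3 wild type and knockout, and 29.5 and 18.6 TPM in those of Huh-7. LYZ was at 14.8 TPM in wild-type Huh-7, while PTPRC, CD3E and MS4A1 were at 0 in HCC-LM3. The part of these markers in the results was not tested.

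The most abundant members were elongation factors. In wild-type HCC-LM3, EEF1A1 had a mean of 4306 TPM, EEF1G 2399 and EEF2 2030, which were 22.6%, 12.6% and 10.6% of the summed TPM of the 45 genes. At the other end stood EIF5B at 5.70, EEF2K at 9.63, EIF4G3 at 10.2 and EIF3A at 12.5 TPM. In wild-type Huh-7 the order began with EEF1G at 2009, EEF2 at 1712 and EEF1A1 at 1176 TPM. Neighbours in the order were often not separable: of the 44 neighbouring pairs, 16 in wild-type HCC-LM3 and 14 in wild-type Huh-7 had values that did not overlap between the 3 libraries of each gene. The cap-binding protein EIF4E was low in all groups, with a rank of 39 in each and means of 29.2, 14.99, 10.1 and 1.12 TPM in HCC-LM3 wild type, HCC-LM3 knockout, Huh-7 wild type and Huh-7 knockout. Together the 45 genes took 2.69% to 2.75% of counts in wild-type HCC-LM3 and 2.82% to 2.84% in its knockout. In Huh-7 they took 1.82% to 1.94% and 1.61% to 1.68%.

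In HCC-LM3, 8 members rose and 12 fell after METTL5 knockout, and 25 did not pass the test (edgeR quasi-likelihood test with Benjamini-Hochberg adjustment across the 16537 genes, called at 0.05). These are 17.8% and 26.7% of the members. Of all genes tested, 14.0% rose and 12.9% fell, and the median log2 fold change was 0.08 over the members and 0.00 over all genes. The elongation genes, which here include the kinase EEF2K, lay on the higher side, with 4 of 7 raised and 0 lowered. Lower calls came from both eIF2 subunits, 4 of 13 eIF3 subunits, 3 of 6 start site factors, 2 of 5 cap-binding and scaffold proteins, and EIF4A2. The changes were small, from −0.74 to 0.50 on the log2 scale. Without wild-type replicate 1, 18 members were higher and 11 lower, and among the elongation genes 5 were higher and 0 lower. More genes were then called over the whole table as well. The balance also moved with the scaling: 5 members were higher and 19 lower with library totals alone, 4 and 12 on the log2(TPM + 1) scale, and 6 and 6 with offsets for GC content and length. Over all genes tested these counts were 1199 higher and 3423 lower, 923 and 2472, and 1487 and 1457.

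**Figure D1:**
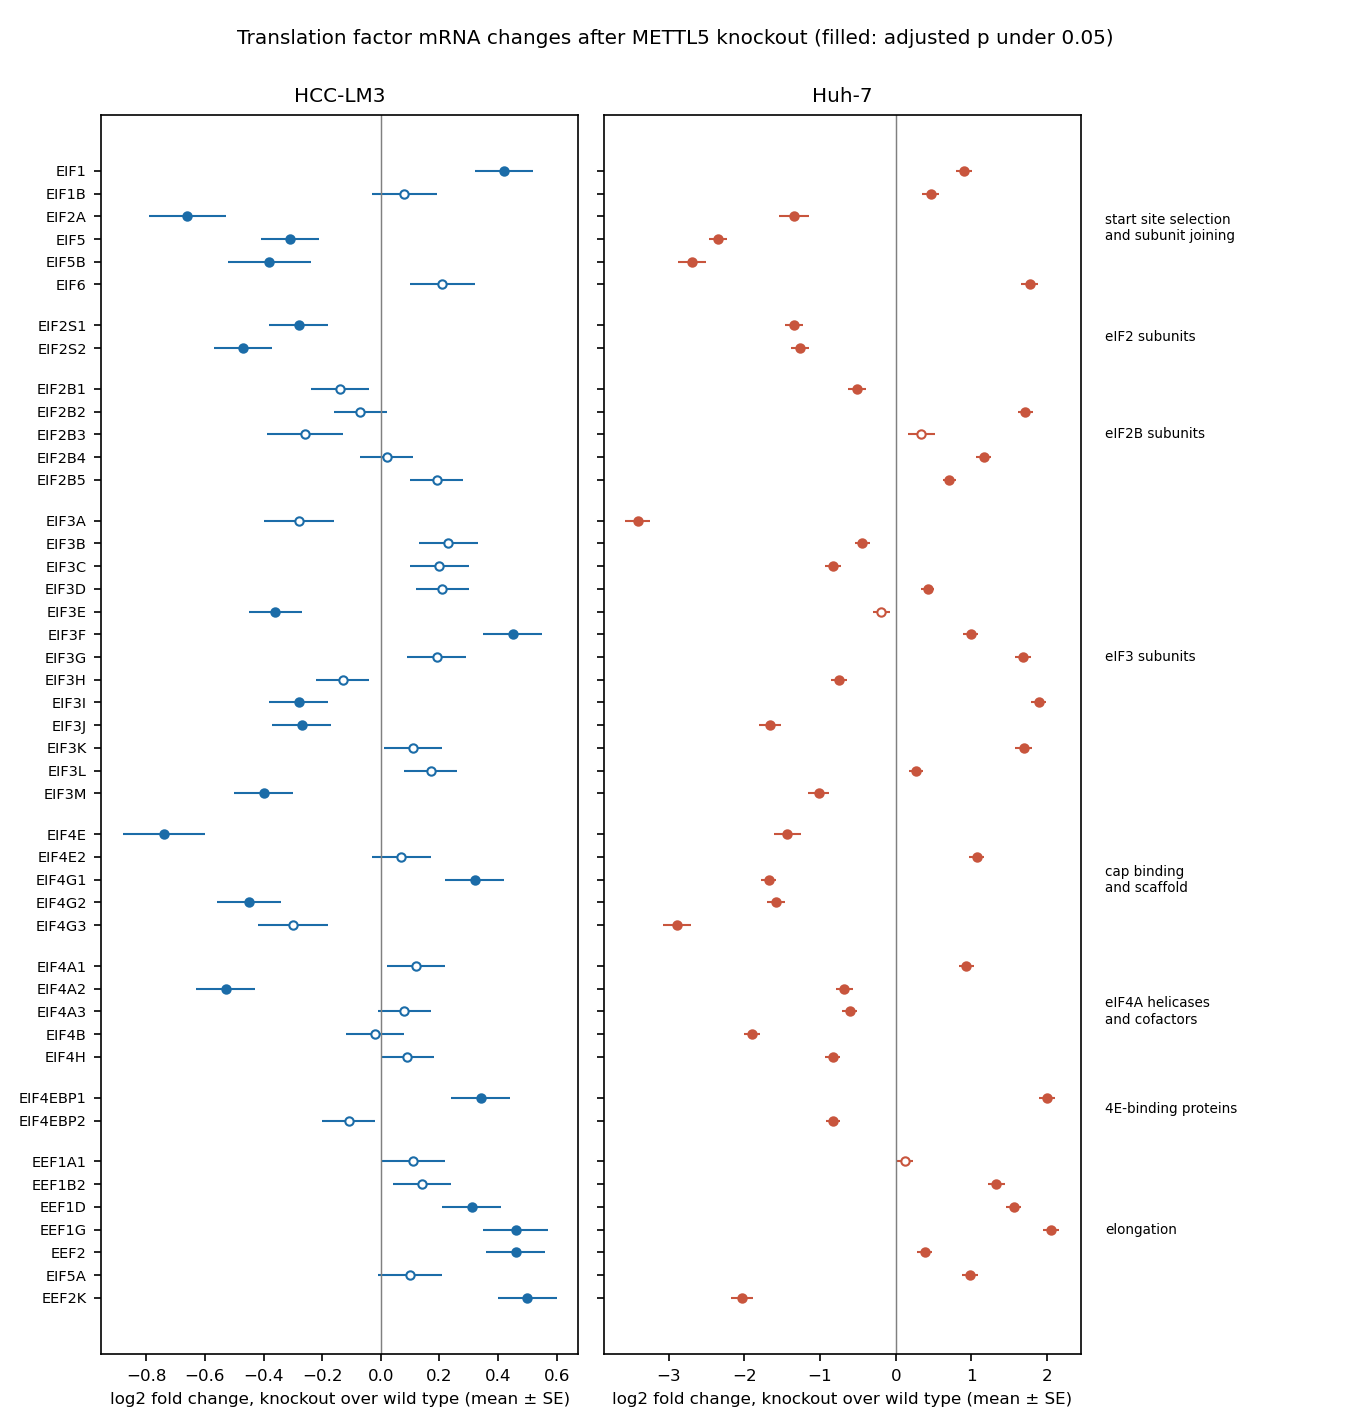
Log2 fold change of each of the 45 genes (x axis, knockout over wild type, mean ± SE, n = 3 per group), by role (y axis), in HCC-LM3 and Huh-7. Filled points passed the test and open points did not; the x axes differ, since HCC-LM3 values span −0.74 to 0.50 and Huh-7 values −3.41 to 2.05.

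EEF2, the translocase of elongation (chr19:3976056-3985469 in GENCODE 29 on GRCh38, minus strand), had 4068, 3346 and 3323 CPM in wild-type HCC-LM3 and 4828, 4974 and 5013 CPM in the knockout. All 3 knockout libraries were above all 3 wild-type libraries, the nearest of which was replicate 1. The log2 fold change was 0.46 ± 0.10 (SE, edgeR adjusted p = 0.00106). EEF1G, a subunit of the complex that recharges eEF1A (chr11:62559601-62574086, minus strand), had 2181, 1682 and 1621 CPM against 2474, 2487 and 2594 CPM. It rose by 0.46 ± 0.11 (edgeR adjusted p = 0.00154), again with no overlap between the groups. EEF1D, another subunit of that complex, had 486.8, 374.9 and 377.2 CPM against 487.0, 514.0 and 536.2 CPM, so wild-type replicate 1 all but met the lowest knockout library. Its rise of 0.31 ± 0.10 (edgeR adjusted p = 0.0217) lost its call when any of wild-type replicates 2 and 3 and knockout replicates 2 and 3 was left out, with values of 0.24 to 0.30. It was also not called with library totals (0.17), on the log2(TPM + 1) scale (0.11) or with GC and length offsets (0.05). EEF1A1, which carries aminoacyl-tRNA, was at 5327 ± 241 CPM (SD, n = 3) against 5740 ± 177 CPM and did not pass the test (log2 fold change 0.11 ± 0.11).

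EEF2K, the kinase that inactivates eEF2, had 41.8, 45.9 and 41.3 CPM in wild-type HCC-LM3 and 64.2, 60.6 and 57.9 CPM in the knockout. The groups were clear of each other, and its rise of 0.50 ± 0.10 (edgeR adjusted p = 0.000266) was the largest rise of any member in this line. Thus the mRNAs of the translocase and of its kinase were both higher in the same libraries. On the log2(TPM + 1) scale the rise of EEF2K was 0.28 and did not pass.

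EIF4E, the cap-binding protein (chr4:98871684-98930637, minus strand), fell most in HCC-LM3. It had 15.3, 17.7 and 15.9 CPM in wild type and 9.67, 9.04 and 10.6 CPM in the knockout. No knockout library reached the lowest wild-type library. The log2 fold change was −0.74 ± 0.14 (edgeR adjusted p = 0.000179), and it was called in the same direction in 23 of 23 alternatives. EIF4G2, a relative of eIF4G that lacks the eIF4E site (chr11:10797050-10809110, minus strand), had 414.6, 560.7 and 583.3 CPM against 396.9, 399.2 and 345.8 CPM. Wild-type replicate 1 lay close above the knockout, and the log2 fold change of −0.45 ± 0.11 (edgeR adjusted p = 0.00239) became −0.60 without that library. In deposited TPM the groups overlapped, with that replicate at 213.0 against 214.4, 216.4 and 161.8 in the knockout. The fall was still called on the log2(TPM + 1) scale (−0.63). EIF4A2, a cap-complex helicase, had 70.6, 90.3 and 90.0 CPM against 63.1, 53.5 and 57.3 CPM. It fell by 0.53 ± 0.10 on the log2 scale (edgeR adjusted p = 0.000139) with no overlap.

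The main scaffold EIF4G1 moved the other way. Its values were 816.7, 702.5 and 738.9 CPM in wild-type HCC-LM3 and 951.7, 901.3 and 969.4 CPM in the knockout, with no overlap, and it rose by 0.32 ± 0.10 (edgeR adjusted p = 0.0127). This call ended when any of wild-type replicates 2 and 3 and knockout replicates 1 and 3 was left out (values of 0.27 to 0.30), and with library totals (0.17), log2(TPM + 1) (0.13) and GC and length offsets (0.11). EIF4EBP1, which binds and blocks eIF4E, had 123.5, 93.7 and 87.3 CPM against 120.8, 125.6 and 138.0 CPM. Wild-type replicate 1 lay within the knockout range. It rose by 0.34 ± 0.10 (edgeR adjusted p = 0.016), and by 0.49 without wild-type replicate 1, but leaving out wild-type replicate 2, wild-type replicate 3 or knockout replicate 3 ended the call (0.23 to 0.27). Nor was it called with library totals (0.19), on the log2(TPM + 1) scale (0.16) or with GC and length offsets (0.09). The other cap-complex members, EIF4E2, EIF4G3, EIF4A1, EIF4A3, EIF4B, EIF4H and EIF4EBP2, did not pass the test, with log2 fold changes from −0.30 to 0.12.

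Both subunits of eIF2 on the list fell in HCC-LM3. EIF2S2, the beta subunit (chr20:34088298-34112332, minus strand), had 65.5, 66.3 and 74.2 CPM in wild type and 47.0, 48.4 and 53.6 CPM in the knockout. All knockout libraries were lower, and the log2 fold change was −0.47 ± 0.10 (edgeR adjusted p = 0.000757). EIF2S1, the alpha subunit that stress kinases phosphorylate, had 54.3, 55.6 and 56.9 CPM against 46.6, 45.8 and 45.1 CPM. It fell by 0.28 ± 0.10 (edgeR adjusted p = 0.028) with no overlap, but that call ended when wild-type replicate 2, wild-type replicate 3 or any knockout library was left out (−0.30 to −0.27), and with GC and length offsets the value was 0.05. None of the 5 eIF2B subunits, which recharge eIF2, passed the test in HCC-LM3 at an adjusted p under 0.05 in edgeR (log2 fold changes from −0.26 to 0.19).

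EIF2A, an alternative carrier of initiator tRNA, had 30.7, 36.3 and 37.3 CPM in wild-type HCC-LM3 and 20.8, 22.1 and 23.3 CPM in the knockout. The 2 groups were well apart, and the log2 fold change was −0.66 ± 0.13 (edgeR adjusted p = 0.000354). EIF1, which guards start codon choice, had 387.5, 297.9 and 289.8 CPM against 426.3, 419.2 and 459.1 CPM. It was higher in all 3 knockout libraries, by 0.42 ± 0.10 (edgeR adjusted p = 0.00294). EIF5, which triggers GTP hydrolysis by eIF2, and EIF5B, which joins the subunits, fell to log2 fold changes of −0.31 ± 0.10 and −0.38 ± 0.14, each with groups that overlapped. EIF5 was at −0.31 to −0.25 and no longer called when wild-type replicates 2 and 3 or knockout replicates 1 and 3 were left out one at a time. The same held for EIF5B, at −0.39 to −0.26, with wild-type replicates 1 and 3 and knockout replicates 1 and 3. With GC and length offsets EIF5 was at −0.14 and EIF5B at −0.08, neither called, and EIF5 was at −0.11 on the log2(TPM + 1) scale. The EIF5B call ended as well with DESeq2 size factors (−0.35), the DESeq2 test (−0.36), limma-voom (−0.37) and HCC-LM3 fitted alone (−0.40). EIF6, which keeps the large subunit apart from the small one, was at 226.4 ± 41.3 CPM against 261.2 ± 13.9 CPM (SD, n = 3) and did not pass.

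The eIF3 subunits did not move as 1 complex in HCC-LM3. EIF3F rose, EIF3M, EIF3E, EIF3I and EIF3J fell, and 8 of 13 did not pass the test. EIF3F had 198.6, 159.7 and 144.6 CPM against 212.2, 226.1 and 247.7 CPM, with wild-type replicate 1 nearest to the knockout, and its log2 fold change was 0.45 ± 0.10 (edgeR adjusted p = 0.00132). EIF3M had 94.9, 85.6 and 95.2 CPM against 70.7, 63.5 and 74.7 CPM, and fell by 0.40 ± 0.10 (edgeR adjusted p = 0.00389). EIF3E had 88.8, 98.1 and 102.0 CPM against 74.4, 76.2 and 74.9 CPM, and fell by 0.36 ± 0.09 (edgeR adjusted p = 0.00304). Neither pair of groups overlapped, yet with GC and length offsets EIF3M was at −0.13 and EIF3E at 0.01. The rise of EIF3F was not called with these offsets either (0.33, edgeR adjusted p = 0.113). EIF3I had a log2 fold change of −0.28 ± 0.10 and EIF3J of −0.27 ± 0.10. Leaving out wild-type replicate 1, knockout replicate 1 or knockout replicate 2 put EIF3I at −0.27 to −0.17, not called. EIF3J lost its call (−0.29 to −0.25) when any HCC-LM3 library other than wild-type replicate 1 was left out. Without wild-type replicate 1, 7 eIF3 subunits were higher and 3 lower.

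**Figure D2:**
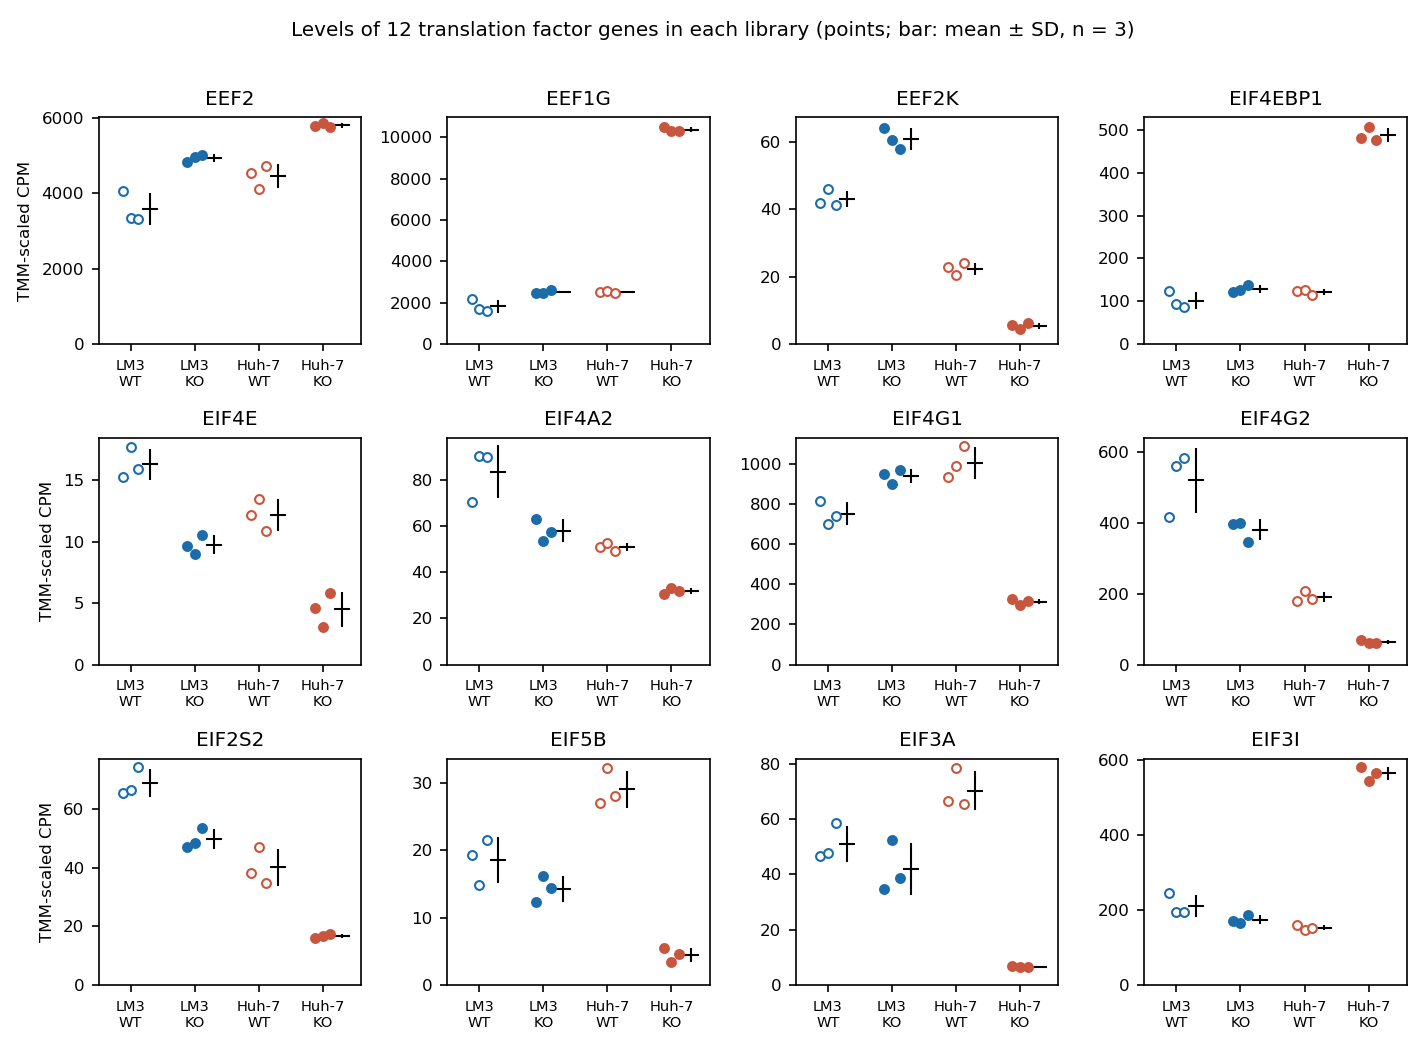
TMM-scaled CPM (y axis, starting at 0) of 12 members in the 12 libraries (x axis, groups of 3); open points are wild type, filled points are knockout, and bars are mean ± SD. EEF1G and EIF4EBP1 stand at about 10370 and 489 CPM in the Huh-7 knockout, above the other groups, while EIF4E, EIF2S2 and EIF4G2 step down from wild type to knockout in both lines.

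In Huh-7, 20 members rose, 22 fell and 3 (EIF2B3, EIF3E and EEF1A1) did not pass. That is 44.4% and 48.9% of members, beside 31.7% and 43.2% of all genes tested, and the median was −0.19 over the members and −0.30 over all genes. Fold changes were larger than in HCC-LM3, from −3.41 to 2.05. Of the 7 elongation genes, 5 rose and the kinase EEF2K fell. Of the 10 cap-binding, scaffold, helicase and cofactor genes, EIF4E2 and EIF4A1 rose and 8 fell. Both eIF2 subunits fell, 3 of 5 eIF2B subunits rose, and the eIF3 subunits split with 6 higher and 6 lower. The split of calls depended on the scaling: 23 higher and 19 lower with DESeq2 size factors, 26 and 15 with offsets for GC content and length, 9 and 32 with library totals alone, and 3 and 37 on the log2(TPM + 1) scale. Calls over all genes tested moved with it. In the same order they were 6511 higher and 5853 lower, 5528 and 4292, 1993 and 10795, and 856 and 11401.

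EEF1G had 2494, 2576 and 2470 CPM in wild-type Huh-7 and 10510, 10290 and 10320 CPM in the knockout. The knockout libraries stood far above the wild type, and the log2 fold change was 2.05 ± 0.11 (edgeR adjusted p = 1.76e-17). On the deposited TPM scale the same gene went from a mean of 2009 to 2639, a smaller step, and there it was 29.4% of the summed TPM of the 45 genes in the knockout. EEF1D had 529.8, 536.7 and 499.7 CPM against 1544, 1562 and 1515 CPM and rose by 1.56 ± 0.10 (edgeR adjusted p = 3.46e-15), but its mean TPM was 772.2 against 773.6. EEF1B2, a further subunit of the complex that recharges eEF1A, rose by 1.33 ± 0.11. EIF5A, the hypusine-bearing factor that relieves stalled ribosomes, rose by 0.98 ± 0.11. EEF1B2 reversed on the log2(TPM + 1) scale and EIF5A under library totals, log2(TPM + 1), and GC and length offsets.

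EEF2 rose less in Huh-7 than its partners: it had 4525, 4102 and 4728 CPM in wild type and 5775, 5873 and 5744 CPM in the knockout, a change of 0.38 ± 0.10 with no overlap, and it was −0.73 with library totals and −1.13 on the log2(TPM + 1) scale. EEF1A1 was at 2393 ± 310 CPM against 2596 ± 209 CPM (SD, n = 3; log2 fold change 0.12 ± 0.11) and did not pass. Its value ran from −1.96 on the log2(TPM + 1) scale to 1.57 with GC and length offsets, so no direction can be given for it. EEF2K had 22.7, 20.5 and 23.9 CPM against 5.52, 4.54 and 6.26 CPM. This kinase fell by 2.03 ± 0.14 on the log2 scale (edgeR adjusted p = 4.58e-15), with every knockout library below wild type, and it was called lower in 23 of 23 alternatives.

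EIF4EBP1 had 124.4, 126.6 and 114.7 CPM in wild-type Huh-7 and 480.6, 507.9 and 477.1 CPM in the knockout. Its rise of 2.0 ± 0.11 (edgeR adjusted p = 2.01e-17) was called under all 5 scalings, the lowest value being 0.36 on the log2(TPM + 1) scale. EIF4E, the protein it blocks, had 12.2, 13.5 and 10.9 CPM against 4.63, 3.03 and 5.83 CPM. It fell by 1.43 ± 0.18 (edgeR adjusted p = 1.06e-08), with every knockout library below wild type. EIF4G1 had 934.2, 989.8 and 1090 CPM against 325.2, 298.6 and 317.7 CPM, and fell by 1.68 ± 0.10 (edgeR adjusted p = 2.13e-16). EIF4G3, a second scaffold, had 20.3, 23.7 and 23.2 CPM against 3.06, 2.68 and 3.30 CPM, and fell by 2.89 ± 0.18 (edgeR adjusted p = 6.22e-16). EIF4G2 fell by 1.58 ± 0.12, so all 3 scaffold genes were lower in the Huh-7 knockout. EIF4B, a cofactor that stimulates eIF4A, had 125.9, 158.9 and 134.1 CPM against 39.8, 32.5 and 39.7 CPM, and fell by 1.90 ± 0.11 (edgeR adjusted p = 1.2e-16). The related cofactor EIF4H fell by 0.83 ± 0.10.

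EIF3A, the largest scaffold subunit of eIF3, showed the deepest fall of any member. It had 66.6, 78.2 and 65.5 CPM in wild-type Huh-7 and 6.80, 6.64 and 6.37 CPM in the knockout. That is a log2 fold change of −3.41 ± 0.16 (edgeR adjusted p = 3.2e-16), or 10.6-fold, and −1.35 with offsets for GC content and length. EIF3J, a loosely bound subunit, had 19.98, 23.3 and 20.7 CPM against 5.92, 6.18 and 8.24 CPM and fell by 1.66 ± 0.14 (edgeR adjusted p = 5.43e-13), a call that ended with the offsets (−0.28). EIF3C fell by 0.83 ± 0.11 and EIF3M by 1.02 ± 0.14, although EIF3M was higher, at 0.93, with the offsets. The offsets rest on deposited lengths, which are uncertain for EIF3M (5047 bases, against 924 implied by TPM and count). The 6 raised subunits were EIF3I, EIF3K, EIF3G, EIF3F, EIF3D and EIF3L. EIF3I had 159.2, 145.9 and 152.0 CPM against 581.6, 545.6 and 566.3 CPM and rose by 1.89 ± 0.10 (edgeR adjusted p = 1.73e-17). EIF3K rose by 1.69 ± 0.11 and EIF3G by 1.68 ± 0.11, but on the log2(TPM + 1) scale these were 0.04 and 0.03. EIF3F rose by 0.99 ± 0.10 and reversed with library totals (−0.13) and log2(TPM + 1) (−0.79). EIF3D was at 0.42 and EIF3L at 0.27, and these too reversed with library totals (−0.69 and −0.84) and log2(TPM + 1) (−1.12 and −1.59). The EIF3L call also ended without wild-type replicate 3, knockout replicate 1 or knockout replicate 3 of Huh-7 (0.21 to 0.24) and without the filter on low counts (0.15).

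Among the start site factors in Huh-7, EIF5B had 27.0, 32.2 and 28.0 CPM against 5.42, 3.38 and 4.62 CPM. It fell by 2.69 ± 0.18 (edgeR adjusted p = 5.75e-15) with no overlap. EIF5 had 59.5, 65.1 and 64.1 CPM against 12.3, 12.6 and 12.1 CPM, and fell by 2.35 ± 0.12 (edgeR adjusted p = 6.62e-18). With GC and length offsets the falls were smaller, at −0.52 for EIF5B (edgeR adjusted p = 0.0403) and −1.14 for EIF5. EIF6 went the other way, with 821.2, 679.5 and 789.7 CPM against 2580, 2647 and 2559 CPM and a rise of 1.77 ± 0.11 (edgeR adjusted p = 1.11e-15). That rise was 0.60 with the offsets and 0.11, not called, on the log2(TPM + 1) scale. EIF1 rose by 0.90 ± 0.11, and EIF2A fell by 1.34 ± 0.20. EIF1 was at −0.21 with library totals and EIF2A at 0.47 with the GC and length offsets. EIF2S1 had a log2 fold change of −1.34 ± 0.12 and EIF2S2 of −1.26 ± 0.12. With the offsets EIF2S1 was at 0.53, while EIF2S2 was called lower under all 5 scalings. EIF2B2, a subunit of eIF2B, had 47.3, 48.6 and 45.4 CPM against 152.9, 153.4 and 155.1 CPM and rose by 1.71 ± 0.10 (edgeR adjusted p = 5.48e-17), with −0.10 on the log2(TPM + 1) scale.

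**Figure D3:**
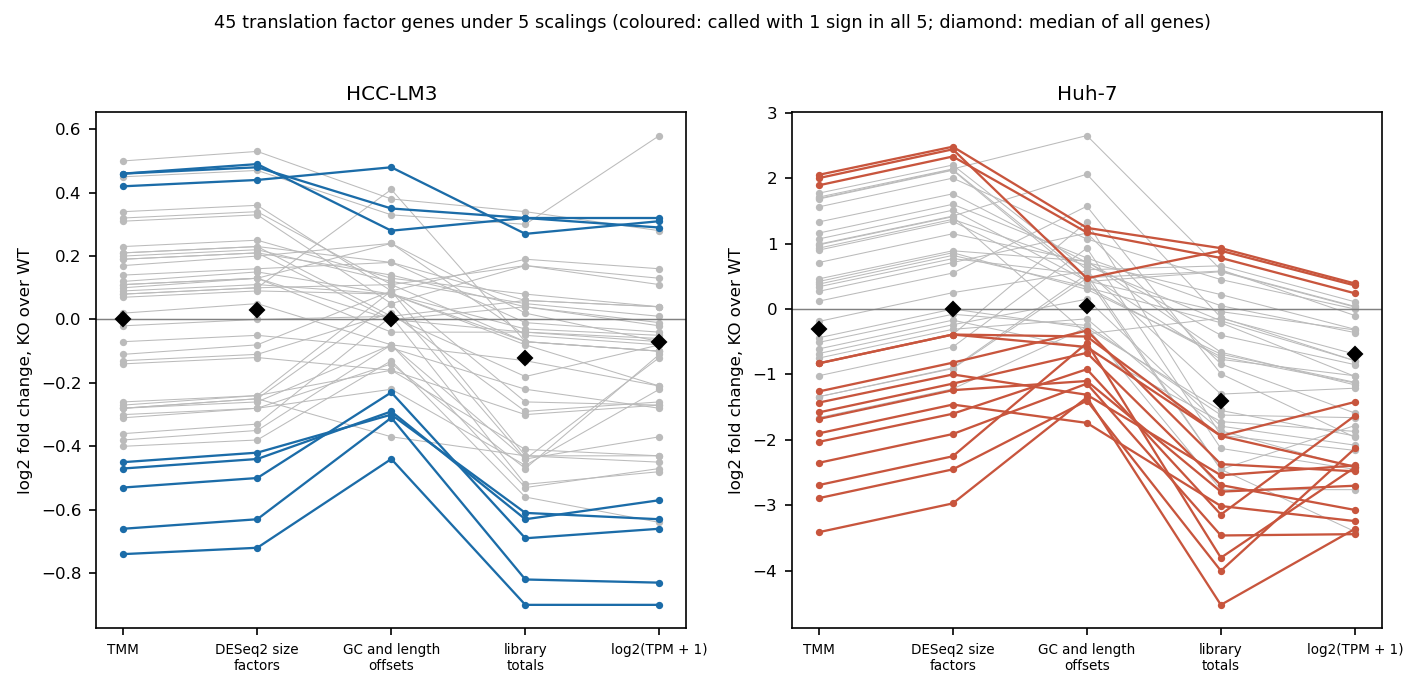
Log2 fold change of the 45 members (lines, y axis) under 5 scalings (x axis) in HCC-LM3 and Huh-7. Coloured lines are the 8 members in HCC-LM3 and 15 in Huh-7 called with 1 sign under all 5, and diamonds are the median of all genes, which in Huh-7 falls from −0.30 with TMM to −1.40 with library totals.

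Some calls had 1 direction under TMM, DESeq2 size factors, GC and length offsets, library totals and log2(TPM + 1). The share of all genes with such calls was not counted, so the number of members cannot be set against it. In HCC-LM3 they were EEF1G, EEF2 and EIF1 (higher) and EIF4E, EIF2A, EIF4A2, EIF2S2 and EIF4G2 (lower). In Huh-7 they were EEF1G, EIF3I and EIF4EBP1 (higher) and 12 lower genes: EIF3A, EIF4G3, EIF5B, EIF5, EEF2K, EIF4B, EIF4G1, EIF4G2, EIF4E, EIF2S2, EIF3C and EIF4H. EEF1G stood on the higher side of both lists, and EIF4E, EIF4G2 and EIF2S2 on the lower side of both. With TMM, 6 members rose in both lines (EIF1, EIF3F, EIF4EBP1, EEF1D, EEF1G and EEF2) and 10 fell in both (EIF2A, EIF5, EIF5B, EIF2S1, EIF2S2, EIF3J, EIF3M, EIF4E, EIF4G2 and EIF4A2). EIF4G1 and EEF2K rose in HCC-LM3 and fell in Huh-7, and EIF3I fell in HCC-LM3 and rose in Huh-7.

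The difference between the knockout effects, tested as HCC-LM3 minus Huh-7, was above 0 for 21 members and below 0 for 18. These compare with 37.7% and 23.9% of all genes, and with a median difference of 0.08 over the members and 0.39 over all genes. The balance turned with the scaling, to 14 above and 22 below with DESeq2 size factors and 14 and 23 with GC and length offsets, and it was 31 and 8 with library totals and 34 and 1 on the log2(TPM + 1) scale. Over all genes tested the counts, in the same order, were 4893 above and 5103 below, 3625 and 4473, 9504 and 1574, and 9636 and 954. For EIF3A the difference was 3.13 ± 0.20 (SE, edgeR adjusted p = 6.99e-13), as this gene was at −0.28 ± 0.12 in HCC-LM3, where it was not called. For EEF2K it was 2.53 ± 0.17 (edgeR adjusted p = 1.76e-14) and for EIF4G1 2.0 ± 0.14 (edgeR adjusted p = 4.14e-14), both with opposite calls in the lines. For EIF3I it was −2.17 ± 0.14 (edgeR adjusted p = 9.23e-15). Under all 5 scalings 10 members were called above 0, EEF2K, EIF3A and EIF4G1 among them, and EIF3I was the 1 member called below 0. The share of all genes called so was not counted. With TMM, EEF2, EIF4A2, EIF3E, EIF3D, EIF3L and EEF1A1 had no called difference between the lines. For EEF2 it was 0.08 ± 0.14, but 1.04 with library totals and 1.45 on the log2(TPM + 1) scale, and under both of those scalings all 6 genes were called above 0. With DESeq2 size factors, EIF3D (−0.63), EIF3E (−0.58), EIF3L (−0.51) and EEF1A1 (−0.42) were instead called below 0. With GC and length offsets, EEF1A1 (−1.33), EIF3L (−0.92), EIF3E (−0.57) and EIF4A2 (−0.38) were called below 0. EEF2 was not called under either (−0.33 and −0.07).

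Fold changes of the members went with transcript length and base composition. In Huh-7, Pearson's r over the 45 genes was −0.606 with log2 deposited length and 0.594 with GC content, against −0.482 and 0.453 over all genes with a value. In HCC-LM3 these were −0.112 and 0.735, against −0.0893 and 0.373. The points share the same 6 libraries per line, so these are descriptions without a test. In Huh-7, the 8 members under 1000 bases had a median of 1.03 with 7 raised, and EIF4E was the 1 that fell. The 11 members of 4000 bases or more had a median of −1.34 with 8 lowered and 2 raised, EIF2B2 and EIF3F. All genes in the same length classes had medians of 1.42 and −1.72. EIF4E, at a deposited 898 bases and 42.0% GC, thus fell where the other members of that length class rose. Deposited lengths are uncertain for some members. EIF4E itself is given 898 bases but its TPM and count imply 1389, EIF5A 811 against 1311 and EIF1 797 against 1196, which would put all 3 outside the class under 1000 bases. EIF3F is given 6920 bases but its TPM and count imply 1517, EIF2B2 4304 against 1351, and EIF3M 5047 against 924. Deposited and implied lengths also differ for EIF2S1 (4154 against 1796), EIF2A (3879 against 1748) and EEF1A1 (4441 against 2854). Among others, they differ for EEF1D (2387 against 846), EIF3C (3145 against 1447), EIF3L (3220 against 1811) and EIF4B (1936 against 3626). The GC and length offsets were built from deposited lengths, so the offset values of such members are uncertain too.

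**Figure D4:**
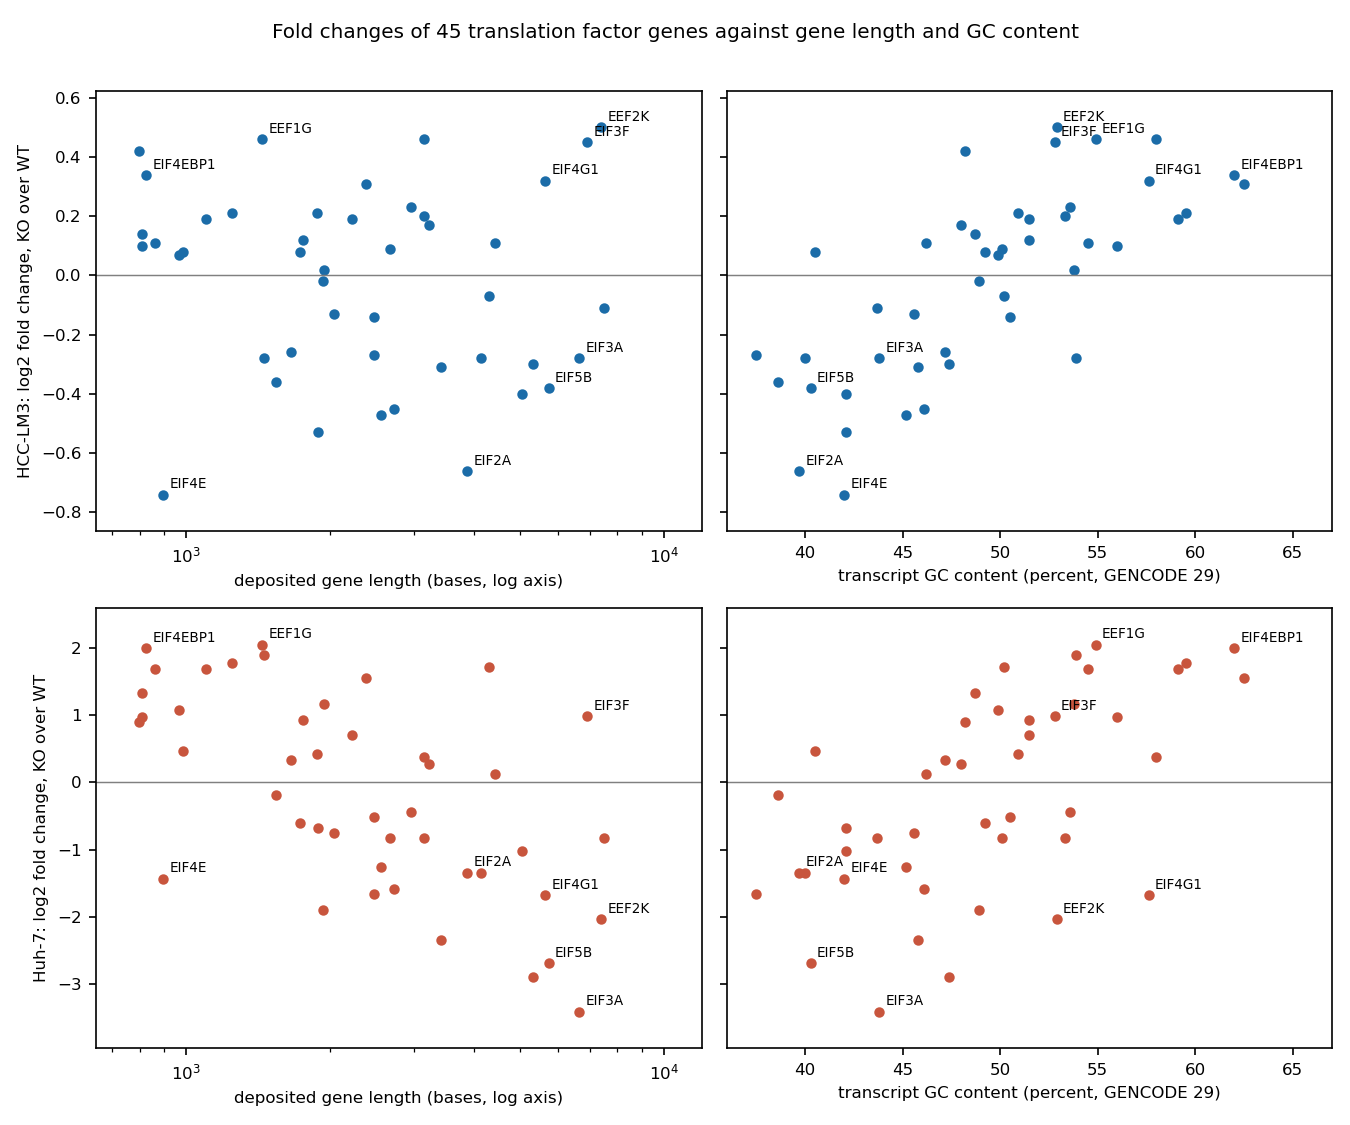
Log2 fold change of the 45 members (y axis) against deposited gene length (x axis, bases, log axis) and transcript GC content (x axis, percent) in HCC-LM3 (top) and Huh-7 (bottom); each point is 1 gene and some are named. In Huh-7 long genes such as EIF3A lie low and short ones such as EIF4EBP1 lie high, with EIF4E, short by its deposited length, at −1.43, and in HCC-LM3 the points climb with GC content.

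TOP tracts were looked for at the annotated start of each member, since 9 members (EEF1A1, EEF1B2, EEF1D, EEF1G, EEF2, EIF3E, EIF3F, EIF3H and EIF4B) were listed as TOP mRNAs from general knowledge. A match was a C at the first transcribed base followed by at least 4 further C or T bases on the gene's strand. RefSeq starts on GRCh38.p14 were available for 37 members, of which 10 (27.0%) held a match in at least 1 start, beside 5.14% of all 27305 symbols in the table. The windows below are 5′ to 3′, with 15 bases before the start and 15 from it, and capitals mark the run of pyrimidines from the first base. They are shown because members with such starts went in different directions with TMM.
EEF2 (chr19:3985449-3985478, minus strand): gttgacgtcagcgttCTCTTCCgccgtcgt
EIF3F (chr11:7987322-7987351, plus strand): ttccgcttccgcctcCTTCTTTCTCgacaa
EEF1A1 (chr6:73521018-73521047, minus strand): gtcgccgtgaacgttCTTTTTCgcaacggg
EIF4B (chr12:53006441-53006470, plus strand): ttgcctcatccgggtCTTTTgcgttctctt
EIF4A2 (chr3:186783562-186783591, plus strand): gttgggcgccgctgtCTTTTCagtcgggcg
EIF2A (chr3:150546772-150546801, plus strand): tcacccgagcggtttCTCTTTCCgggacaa

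With TMM, EEF2 and EIF3F, with runs of 7 and 10, rose in both lines. EIF4A2 and EIF2A, with runs of 6 and 8, fell in both. In Huh-7 these directions moved with the scaling. There EEF2 was at −0.73 and EIF3F at −0.13 with library totals, and at −1.13 and −0.79 on the log2(TPM + 1) scale. EIF4A2 was at 0.15 and EIF2A at 0.47 with GC and length offsets. EIF4B, with a run of 5, did not move in a called way in HCC-LM3 (−0.02 ± 0.10) and fell in Huh-7. Of the 10 members with a match, 2 rose and 3 fell in HCC-LM3, and 5 rose and 4 fell in Huh-7. The shares of all genes tested were 14.0% higher and 12.9% lower in the first line, and 31.7% higher and 43.2% lower in the second. Of the 9 listed TOP mRNAs, 4 rose and 1 (EIF3E) fell in HCC-LM3, with a median of 0.14, and 5 rose and 2 (EIF4B and EIF3H) fell in Huh-7, with a median of 0.38. Among these 9, EEF1A1, EEF1B2, EEF2, EIF3F and EIF4B held a match and EEF1G did not. EEF1D, EIF3E and EIF3H had no start to check. A match describes these letters only, and TOP control acts on translation, which was not measured.

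Ratios of paralogs within a library do not depend on how libraries are scaled against each other, but paralogs can differ in length and GC content. The log2 ratio of EIF4E to EIF4E2, a cap-binding relative that represses translation, was −2.70, −2.01 and −2.28 in wild-type HCC-LM3 and −3.05, −3.06 and −3.08 in the knockout, from the deposited TPM. In Huh-7 it was −3.60, −3.50 and −3.72 against −6.55, −6.72 and −6.17. All 6 knockout values were below those of their wild type, with mean differences of −0.74 and −2.87 and an exact permutation p of 0.1 in both lines, which is the smallest that 3 against 3 allows (two-sided; 0.125 adjusted over the 10 ratio tests). EIF4A1 to EIF4A2, the main and the second helicase, was higher in the knockout by 0.62 in HCC-LM3 and by 1.45 in Huh-7, with no overlap in either. The GC content is 42.0% for EIF4E and 49.9% for EIF4E2, and 42.1% for EIF4A2 and 51.5% for EIF4A1, and its part in these ratios was not tested. EIF1 to EIF1B was higher by 0.42 and 0.16, also with no overlap. EIF4EBP1 to EIF4EBP2 was higher by 2.84 in Huh-7 (3.57 ± 0.10 against 6.41 ± 0.17, SD, n = 3) and by 0.45, with overlap, in HCC-LM3. This pair differs in deposited length (827 and 7491 bases) and GC content (62.0% and 43.7%). With GC and length offsets in Huh-7, EIF4EBP1 was at 0.47 and EIF4EBP2 at 1.33, and EIF1 at 0.33 and EIF1B at 0.73. That order is opposite to these ratios, while the other pairs kept theirs. The part of length was not tested either. EIF4G1 to EIF4G3 was higher by 1.02 in Huh-7 and by 0.38, with overlap, in HCC-LM3, but in Huh-7 the difference in the ratio of TPM + 1 was −0.57, where EIF4G3 had a mean of 0.377 TPM in the knockout.

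**Figure D5:**
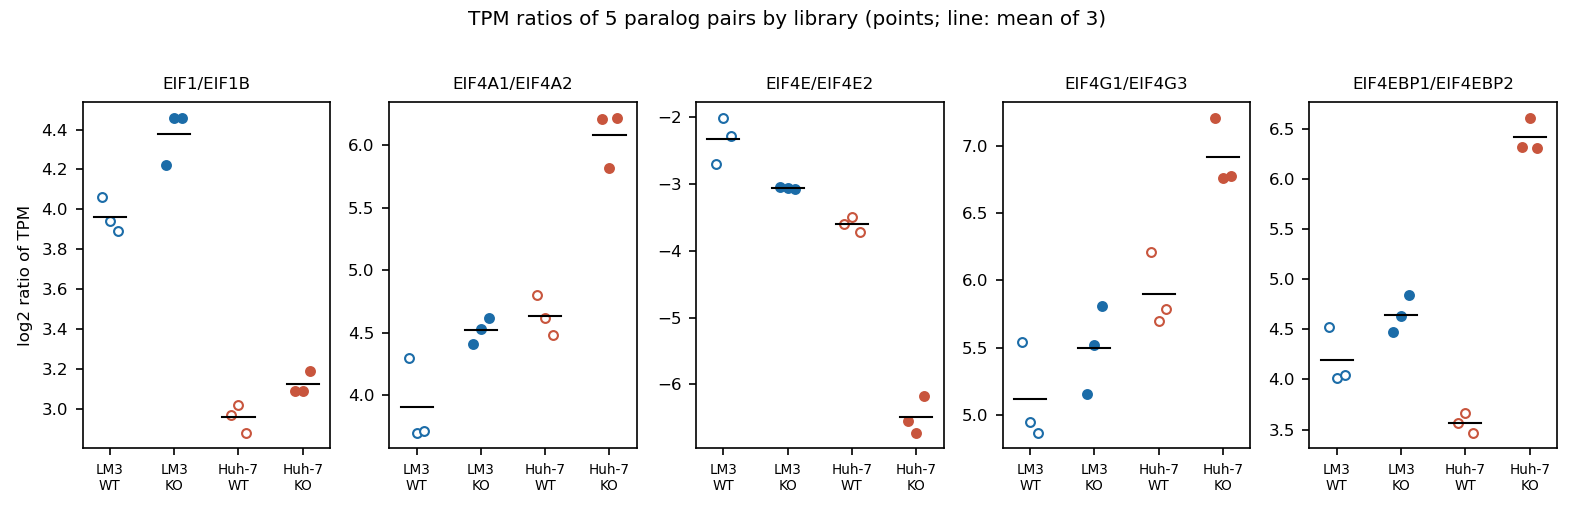
Log2 ratio of deposited TPM (y axis) of 5 paralog pairs in each library (points, x axis groups of 3; open wild type, filled knockout; line, mean). EIF4E to EIF4E2 drops from wild type to knockout in both lines, to −6.48 in Huh-7, and EIF4EBP1 to EIF4EBP2 climbs to 6.41 in Huh-7.

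The wild-type lines already differed in these genes. HCC-LM3 was higher than Huh-7 for 23 members and lower for 16, beside 41.8% and 41.0% of all genes, with a median of 0.23 over the members and 0.03 over all genes. Several eIF3 subunits were among the largest differences. EIF3M was at 94.9, 85.6 and 95.2 CPM in wild-type HCC-LM3 and at 17.4, 21.5 and 16.7 CPM in wild-type Huh-7, a log2 difference of 2.31 ± 0.11 (edgeR adjusted p = 2.74e-19). EIF3E was higher in HCC-LM3 by 2.10 ± 0.10 and EIF3H by 1.98 ± 0.10, as were EIF2A by 1.98 ± 0.14 and EIF2B3 by 1.97 ± 0.15. EIF3G lay in the other direction, at 107.2, 81.4 and 78.6 CPM against 383.8, 388.9 and 369.7 CPM (−2.10 ± 0.11, edgeR adjusted p = 1.63e-18). EIF6 (−1.75 ± 0.11), EIF1B (−1.25 ± 0.11), EIF2B5 (−0.93 ± 0.09) and EIF4EBP2 (−0.89 ± 0.09) were also lower in HCC-LM3. In all 10 genes named here, picked for their large differences, the 2 lines did not overlap in CPM. The same held for 37 of the 45 members, and the share over all genes was not counted. Called with 1 sign under all 5 scalings were 20 members higher and 3 lower, the last being EIF1B, EIF3G and EIF6. The share of all genes called so was not counted. The median of all genes in this contrast was 0.46 with library totals and 0.44 on the log2(TPM + 1) scale.

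Other genes of the pathway were counted by list. Of 20 other initiation factors, 2 rose and 5 fell in HCC-LM3, among them EIF1AX, the partner of eIF1 in scanning (−0.64 ± 0.11), and DDX3X, a helicase (−0.54 ± 0.10). In Huh-7, 4 rose and 14 fell, with PDCD4, an inhibitor of eIF4A, at −3.74 ± 0.26 and PABPC1, the poly(A)-binding protein, at −2.58 ± 0.11. Of 16 tested genes among other elongation factors and their modifying enzymes, 3 rose and 3 fell in HCC-LM3 and 12 rose and 2 fell in Huh-7. EEF1A2, the second eEF1A gene, rose by 0.69 ± 0.10 in HCC-LM3. Of 6 tested termination and recycling genes, 0 rose and 3 fell in HCC-LM3, where the recycling factor ABCE1 was at −0.73 ± 0.13, and 2 rose and 4 fell in Huh-7, where ABCE1 was at −2.57 ± 0.18. Of the 6 eIF2 kinases and phosphatase subunits, 1 rose and 1 fell in HCC-LM3 and 1 rose and 5 fell in Huh-7, with EIF2AK2, the double-stranded RNA kinase PKR, at −0.39 ± 0.12 and −2.78 ± 0.22. Of 13 mTORC1 and MNK genes, 5 rose and 1 fell in HCC-LM3 and 6 rose and 6 fell in Huh-7, where MTOR was at −2.82 ± 0.13 and LARP1, which binds TOP mRNAs, at −2.74 ± 0.11. Of 9 mitochondrial translation factors, 0 rose and 4 fell in HCC-LM3 and 2 rose and 6 fell in Huh-7. For each list the shares are to be read beside the background shares given above, and the Huh-7 splits move with the scaling as they do for the members. The falls named here were smaller with GC and length offsets. In HCC-LM3 they were then −0.28 for EIF1AX, −0.26 for DDX3X, −0.37 for ABCE1 and −0.06 for EIF2AK2, and the rise of EEF1A2 was 0.44. In Huh-7 they were −2.11 for PDCD4, −2.17 for PABPC1, −0.75 for ABCE1, −0.91 for EIF2AK2, −0.99 for MTOR and −1.74 for LARP1.

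Several members share sequence with copies, and how the authors shared out reads between them is not given in the sources used here. The table holds 132 rows named as copies of members, which drew few counts: at most 5.76% of the member plus its copies for EIF3F, 1.77% for EIF2S2 and 0.249% for EEF1A1. EIF3CL, a near-identical copy of EIF3C, had 101.4 to 105.5 CPM in wild-type HCC-LM3 and 197.2 to 209.1 CPM in wild-type Huh-7, so EIF3C is uncertain. EIF5AL1, a copy of EIF5A, was at 0.367 to 4.31 CPM. Reads of overlapping genes, such as EIF4A1 and its readthrough with SENP3, may also be shared. A lower level in a culture can reflect fewer cells that make an mRNA or less of it in each cell, and these cannot be told apart.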

How the data were processed

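RNA sequencing libraries were made from TRIzol-extracted RNA and sequenced on an Illumina NovaSeq, per the labels' protocols. The authors deposited expected counts and TPM values for each gene in each library, beside gene lengths (per the file headers). The submitters' processing notes name Bowtie 0.12.2 with builds mm8 and mm9, which are mouse builds. Neither the counting tool and its strand setting nor the human build and annotation is given in the sources used here.

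Deposited expected counts were rounded, filtered with filterByExpr (16537 genes left), scaled by TMM and tested with the robust quasi-likelihood fit of edgeR 4.0.16 in R 4.3.3, with 1 mean per group over all 12 libraries (8 residual degrees of freedom). Tests were two-sided, and p-values were adjusted by Benjamini-Hochberg over all genes, with a call at 0.05. Standard errors came from the F statistics. Paralog ratios used TPM and an exact permutation test. Positions and GC content came from GENCODE 29, in which 99.54% of gene identifiers were found. The members, their roles and the other gene lists were chosen with earlier results of these data known. Values per library were given for the 8 called members per direction with the largest change in each knockout (mean of at least 5 CPM), 5 per direction for the other contrasts, and paralog pairs, though a few of these are given by fold change alone. Members named beyond this rule, such as EIF2S1 and EEF1A1, were chosen after their values were seen. Alternatives were DESeq2 1.42.0, limma 3.58.1, other scalings and filters, offsets for GC content and deposited length, single-line fits, and leaving out each library.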

Additional observations from a re-analysis of the deposited data

Results flagged for a closer look

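The knockout effect in HCC-LM3 and that in Huh-7 differed in an interaction test over all genes (edgeR quasi-likelihood, Benjamini-Hochberg adjusted p under 0.05) for 21 members above 0 and 18 below, beside 37.7% and 23.9% of all genes. The 5 largest differences in each direction are given here, and EIF4G1, whose calls were opposite in the lines. The log2 difference, HCC-LM3 minus Huh-7, was 3.13 for EIF3A, 2.59 for EIF4G3, 2.53 for EEF2K, 2.31 for EIF5B, 2.04 for EIF5 and 2.0 for EIF4G1, all with lower values of the knockout effect in Huh-7. It was −2.17 for EIF3I, −1.78 for EIF2B2, −1.67 for EIF4EBP1, −1.58 for EIF3K and −1.58 for EEF1G, all with higher values of it in Huh-7. The median difference over all genes was 0.39. EIF3A, EIF4G3, EEF2K, EIF5, EIF4G1 and EIF3I were called under all 5 scalings. EIF5B was not called with GC and length offsets (0.44), nor were EIF2B2, EIF4EBP1, EIF3K and EEF1G on the log2(TPM + 1) scale (−0.17, −0.19, −0.10 and −0.11).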

How the results depend on the processing

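Under 23 alternatives, 2510 values were recomputed for 110 results of single members, namely all 45 in both knockout comparisons and, for the difference between lines and between wild types, the 5 per direction chosen by the rule. Of these, 2318 kept direction and side of the threshold, 98 lost a call, 45 gained one and 49 reversed (a called value that changed sign, or an uncalled one that was called with the other sign). Over all 45 members, called or not, 56 of 990 values for the difference between lines had the other sign, in 22 members, as had 56 of 990 between wild types, in 15. In HCC-LM3 the counts of members higher and lower were 5 and 19 with library totals alone, 4 higher on log2(TPM + 1), 6 lower with GC and length offsets, 5 and 7 at an adjusted p under 0.01, and 1 and 3 with log2 changes of 0.5 or more in size. Leaving out single libraries gave 5 to 18 higher and 7 to 12 lower: 18 higher without wild-type replicate 1, 5 without replicate 2 or 3 of wild type or replicate 3 of knockout, and 7 lower without knockout replicate 1. Genes called in HCC-LM3 numbered 4440, and 2944 with the offsets and 2743 to 6136 when single libraries were left out (2743 and 2832 without wild-type replicates 3 and 2, but 6136 without replicate 1). In Huh-7, 9 members were higher with library totals and 3 higher and 37 lower on log2(TPM + 1). For the difference between lines, 34 were above and 1 below 0 on log2(TPM + 1), 8 below with library totals, and the balance turned with DESeq2 size factors (14 and 22) and the offsets (14 and 23). Between wild-type lines, 37 were higher and 4 lower on log2(TPM + 1), 5 lower with library totals and 8 lower at the fold threshold. Over all genes tested, 9147 were higher and 4555 lower between wild types on log2(TPM + 1), and 8430 and 5429 with library totals. All-gene counts of the other contrasts under these scalings are given above.

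Replicate numbers do not pair the libraries (same-number correlations of deviations at most 0.0827). A replicate block left member counts at 8 and 12 in HCC-LM3, 20 and 22 in Huh-7, 21 and 18 for the difference and 23 and 16 between wild types, though EIF3J in HCC-LM3 was then not called. Mean ratio differences are the same with such a block by arithmetic, so it does not test them. With the offsets and a replicate block together, 4 members were lower and 2639 genes called in HCC-LM3.

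Reversed Huh-7 values with library totals were −0.21 for EIF1, −0.66 for EIF1B, −0.18 for EIF4A1, −0.04 for EIF4E2, −0.77 for EIF2B3, −0.40 for EIF2B5, −0.69 for EIF3D, −0.84 for EIF3L, −0.13 for EIF3F, −0.99 for EEF1A1, −0.73 for EEF2 and −0.14 for EIF5A. On log2(TPM + 1) they were −0.10 for EIF2B2, −1.03 for EIF1, −1.16 for EIF1B, −0.79 for EIF4A1, −0.32 for EIF4E2, −1.02 for EIF2B3, −0.36 for EIF2B4, −0.85 for EIF2B5, −1.12 for EIF3D, −1.59 for EIF3L, −0.79 for EIF3F, −1.96 for EEF1A1, −0.31 for EEF1B2, −1.13 for EEF2 and −0.69 for EIF5A. With GC and length offsets they were 0.15 for EIF4A2 (0.14 with the block), 1.33 for EIF4EBP2, 0.47 for EIF2A, 0.53 for EIF2S1, 0.58 for EIF3E, 0.93 for EIF3M (0.91 with the block) and −0.38 for EIF5A, and in HCC-LM3 0.01 for EIF3E, 0.05 for EIF2S1 and 0.09 for EIF3J. EIF3E in Huh-7 was also at 0.25 with DESeq2 size factors and the DESeq2 test. Of the paralog ratios in Huh-7, EIF1 to EIF1B was 0.45 and EIF4E to EIF4E2 −2.56 from expected counts; from TPM + 1, EIF4E to EIF4E2 was −2.07, EIF4G1 to EIF4G3 −0.57 and EIF4EBP1 to EIF4EBP2 2.52. The cause of these shifts was not tested. Precision rests on 3 libraries per group, and 8 members (EIF2A, EIF2B3, EIF3A, EIF3J, EIF4E, EIF4G3, EIF5B and EEF2K) had means under 7 CPM in the Huh-7 knockout.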
